A study of Mus musculus with 4 samples.

Results

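The genes described here encode enzymes of the glutathione and thioredoxin systems and the other main antioxidant enzymes, measured in mouse stomach. They were chosen by symbol in the array's probe annotation: glutathione transferases of the alpha, mu, pi, theta, omega, zeta and kappa classes, microsomal glutathione transferases, glutathione peroxidases, peroxiredoxins and thioredoxin reductases, together with Gclc, Gclm, Gss, Gsr, Nqo1, Hmox1, Sod1, Sod2 and Cat. The rule used no measured difference, but the set was chosen with earlier results of these data known. It gave 44 genes of the 22180 with a value. Each of the 44 had 1 probe set that carried its symbol alone. A further 7 protein-coding genes of these families in the gene table were not members. For 5 of them, Gsta1, Gsta2, Gstm5, Gstz1 and Prdx1, every probe set named for them also named another gene, and Prdx5 and Prdx6 were named by no probe set in the annotation used here. The pseudogene Gpx2-ps1 was left out.

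Stomach tissue came from FVB mice aged 1 year that were labelled Hdc+/+ or Hdc-/-, with 2 arrays per genotype. Hdc encodes histidine decarboxylase, the enzyme that produces histamine, which in the stomach stimulates acid secretion. All the mice are described as of the same strain and age, which was not tested here. No treatment is named, and neither the knockout allele nor the animals' sex is given in the labels. Replicates are named biological in the titles. Nothing further ties each array to an animal of its own, so a p-value here speaks only for the spread among these 4 samples, which may be technical. Hdc itself read 3.99 and 3.82 on the Hdc+/+ arrays and 3.77 and 4.06 on the Hdc-/- arrays, a log2 difference of 0.01 (SE 0.19, limma adjusted p = 0.997). Both Hdc+/+ values lay below the lowest array median of 4.05, so the probe set read low even on those arrays. The sources used here do not say whether its probes lie in the deleted part. Hdc thus gave no check of the genotypes, which are taken as labelled throughout.

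Glutathione is a small thiol peptide held at high concentration in most cells. Glutamate-cysteine ligase and glutathione synthetase make it, transferases join it to electrophiles and lipid peroxidation products, peroxidases spend it to reduce peroxides, and glutathione reductase recycles the oxidised form with NADPH. Peroxiredoxins, served by thioredoxin and thioredoxin reductase, reduce peroxides in parallel, while superoxide dismutases and catalase need neither thiol. Many of these genes are targets of the transcription factor NRF2, which binds antioxidant response elements. The gastric epithelium meets acid, food electrophiles and reactive oxygen, and liver is an abundant source of many transferases, of catalase and of superoxide dismutase.

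The sequences just upstream of the start sites are shown for 5 members that differed most or that hold a motif: Gstm2 and Gstm3, neighbours in the mu cluster that read in opposite directions, Gstp3, with the largest difference, and Mgst1 and Sod1, which read lower and hold the core of an antioxidant response element. Each run is the 250 bases before the start in RefSeq's annotation of build GRCm38.p6, 5′ to 3′ on the gene's strand. Mgst1 has a second annotated start, whose 250 bases hold neither motif and are not shown. Capitals mark matches on either strand to TGACNNNGC, the core of that element, or to the TATAAA box, and the matches shown do not overlap.
Gstm2, chr3:107986421-107986670, minus strand: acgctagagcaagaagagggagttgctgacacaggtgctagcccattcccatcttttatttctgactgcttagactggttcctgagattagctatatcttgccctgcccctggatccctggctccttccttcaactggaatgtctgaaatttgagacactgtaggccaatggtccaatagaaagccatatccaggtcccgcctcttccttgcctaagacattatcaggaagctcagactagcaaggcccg
Gstm3, chr3:107969175-107969424, minus strand: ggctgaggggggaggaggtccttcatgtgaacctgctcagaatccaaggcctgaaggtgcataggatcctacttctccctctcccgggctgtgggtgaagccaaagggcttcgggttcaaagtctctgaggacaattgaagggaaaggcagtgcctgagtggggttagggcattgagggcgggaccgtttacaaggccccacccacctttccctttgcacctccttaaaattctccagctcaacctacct
Gstp3, chr19:4059448-4059697, minus strand: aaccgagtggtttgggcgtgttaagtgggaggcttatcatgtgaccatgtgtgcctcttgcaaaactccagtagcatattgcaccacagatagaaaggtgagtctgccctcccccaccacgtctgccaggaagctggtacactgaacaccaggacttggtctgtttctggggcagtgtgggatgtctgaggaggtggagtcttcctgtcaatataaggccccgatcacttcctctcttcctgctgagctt
Mgst1, chr6:138140277-138140526, plus strand: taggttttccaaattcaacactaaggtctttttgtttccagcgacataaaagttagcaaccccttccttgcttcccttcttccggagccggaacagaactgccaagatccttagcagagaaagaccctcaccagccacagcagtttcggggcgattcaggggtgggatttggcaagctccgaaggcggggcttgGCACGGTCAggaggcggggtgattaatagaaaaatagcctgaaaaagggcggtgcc
Sod1, chr16:90220512-90220761, plus strand: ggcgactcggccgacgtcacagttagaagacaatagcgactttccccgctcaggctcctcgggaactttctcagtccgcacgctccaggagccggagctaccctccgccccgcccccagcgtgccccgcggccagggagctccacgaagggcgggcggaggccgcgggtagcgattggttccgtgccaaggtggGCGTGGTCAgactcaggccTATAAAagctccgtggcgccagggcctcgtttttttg
The core TGACNNNGC was in the 250 bases before 6 (11.5%) of the 52 annotated starts of the 39 members that matched the promoter table, against 10.2% of all 32851 starts. The 6 were 1 start each of Gsta3, Gstm7, Gclm, Mgst1, Txnrd1 and Sod1. Unlike Mgst1 and Sod1, which were picked for display because they read lower, the rest differed little between the genotypes. Their log2 differences, Hdc-/- minus Hdc+/+, were 0.20 (Gsta3), 0.14 (Gstm7), 0.02 (Gclm) and -0.03 (Txnrd1). TATAAA was also before 6 (11.5%) of the member starts, against 12.4% of all. In Mgst1 and Sod1 the core began 56 bases before the start, on the opposite strand. A match describes the letters in this window and is no evidence of binding.

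The 4 arrays held log2 probe set values with medians from 4.05 to 4.15. The defining stomach genes Atp4a, Atp4b, Tff1, Gkn1, Gkn2, Muc5ac and Pgc read at least 10.4 on every array, as the tissue label requires. Markers of other organs differed between the arrays. All 13 of the 13 measured hepatocyte markers read lower on the Hdc-/- arrays, with a median log2 difference of -3.79, as did 11 of 12 intestinal enterocyte, 8 of 8 pancreatic acinar, 8 of 8 adipocyte and 11 of 11 forestomach squamous markers (medians -1.52, -1.74, -1.15 and -0.64). Summed over the list as linear signal, the hepatocyte markers reached 4801 and 14240 on Hdc+/+ arrays 1 and 2 and 620 and 843 on the Hdc-/- arrays. The pancreatic markers were high on Hdc+/+ array 2 alone, at 6164 against 273 to 317 on the other 3, and their median difference was 0.09 without that array. The enterocyte median was -0.60 without Hdc+/+ array 2 and -2.95 without Hdc+/+ array 1. No marker was listed at 0 on any array. In tissue RNA of this kind, fewer cells of a type and less RNA per cell cannot be told apart.

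None of the 44 genes passed the comparison of the genotypes adjusted over all genes. By limma's adjusted p, 0 members were higher and 0 lower on the Hdc-/- arrays, where 0.00451% of all genes passed as higher and 0% as lower. With no adjustment, 5 members were higher at a p under 0.05 (11.4% of the members, against a background of 3.68% of all genes) and 7 lower (15.9%, against 4.87%). With the dimmest 50% of genes left out, 25.7% of the members tested and 11.3% of all genes tested were at that level in either direction. With no gene left out, 12 members were (27.3%, against 8.55%). They are Gstm2, Gstm6, Gss, Prdx4 and Hmox1 on the higher side and Gstp3, Gstm3, Gstk1, Cat, Mgst1, Sod1 and Mgst2 on the lower, with adjusted p from 0.222 to 0.584. The 2 groups of arrays did not overlap for 8 members with higher values (18.2%, background 21.5%) and 9 with lower values (20.5%, background 17.6%), shares near the background. The median log2 difference over the members was -0.02, with 21 higher and 23 lower, beside 0.02 over all genes. The median size of the difference was 0.13 on the log2 scale, against 0.17 over all genes. Of the members, 4 (9.09%) differed by at least 1 on the log2 scale in either direction, against 2.75% of all genes.

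**Figure D1:**
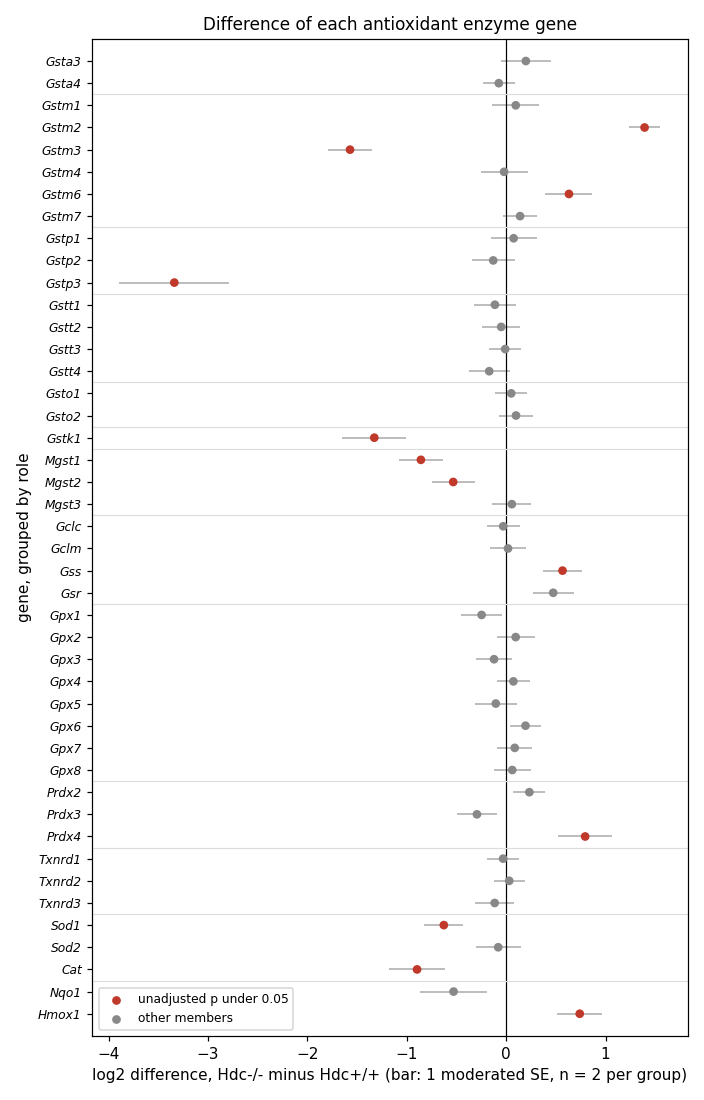
Log2 difference of each of the 44 genes, Hdc-/- minus Hdc+/+, with 1 moderated standard error as a bar (n = 2 arrays per group), ordered by enzyme role. Red points are the 12 genes at an unadjusted p under 0.05, from Gstp3 at -3.34 to Gstm2 at 1.39, and most of the other members lie close to 0.

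Of the 12 genes at an unadjusted p under 0.05, 7 were transferases, among 21 transferase members. That level was reached by 12 of the 44 members (27.3%) and by 8.55% of all genes. The mu class conjugates a wide range of xenobiotic electrophiles, and its genes lie in 1 cluster on chromosome 3. Gstm2 read 6.36 and 6.41 on the Hdc+/+ arrays and 7.72 and 7.83 on the Hdc-/- arrays. Both pairs were tight, and the groups lay far apart relative to the spread within them. The log2 difference was 1.39, or 2.62-fold (SE 0.16 from 2 arrays per group; limma adjusted p = 0.222), the smallest p of any member. Gstm3, its neighbour in the cluster, went the other way. It read 6.41 and 6.92 on the Hdc+/+ arrays against 5.13 and 5.06 on the Hdc-/- arrays, a log2 difference of -1.57, or 2.97-fold lower (SE 0.22, adjusted p = 0.247). Gstm6, on the far side of Gstm3, read 2.78 and 3.36 against 3.63 and 3.78, a log2 difference of 0.63 (SE 0.24, adjusted p = 0.560). Gstm6 was among the 3 members in the dimmest 25% of genes. The other 3 mu genes, Gstm1, Gstm4 and Gstm7, differed by -0.02 to 0.14. Mu genes are close relatives, and the sources used here do not say which of them each probe set can tell apart.

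The pi class holds 3 genes side by side on chromosome 19, and 1 of them differed widely. Gstp3 read 7.77 and 9.53 on Hdc+/+ arrays 1 and 2 and 5.21 and 5.42 on the Hdc-/- arrays. Even the lower Hdc+/+ array stood well above both Hdc-/- arrays, but the Hdc+/+ arrays were also far apart. The log2 difference was -3.34, or 10.1-fold lower (SE 0.55; limma adjusted p = 0.279). Gstp1, the major pi enzyme, read 9.90 and 9.88 against 9.68 and 10.25, and Gstp2 read 9.53 and 9.46 against 9.11 and 9.62. Their differences of 0.07 (SE 0.23) and -0.13 (SE 0.22) were within the spread of the Hdc-/- arrays. As with the mu genes, the sources used here do not say which pi genes each probe set can tell apart. Without Hdc+/+ array 1 the Gstp3 difference was -4.22 and passed (adjusted p = 0.0144), in a fit that called 3 genes higher and 158 lower, and without Hdc+/+ array 2 it was -2.46. Hepatocyte and enterocyte marker lists were likewise highest on Hdc+/+ array 2 and lowest on the Hdc-/- arrays, and their part in the Gstp3 difference was not tested.

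Kappa and microsomal transferases also stood lower. Gstk1, a transferase of mitochondria and peroxisomes, read 9.51 and 9.84 on the Hdc+/+ arrays and 7.91 and 8.79 on the Hdc-/- arrays, the lowest value falling on Hdc-/- array 1. Its log2 difference was -1.33, or 2.51-fold lower (SE 0.32, adjusted p = 0.396). It was -0.89 without Hdc-/- array 1 and -1.77 without Hdc-/- array 2. Mgst1, a membrane-bound transferase and peroxidase of the endoplasmic reticulum and mitochondria, read 7.09 and 7.62 against 6.45 and 6.54, with no overlap, and differed by -0.86 (SE 0.22, adjusted p = 0.423). Mgst2, a relative of leukotriene C4 synthase that can make leukotriene C4, read 8.98 and 8.87 against 8.15 and 8.63 and differed by -0.53 (SE 0.21, adjusted p = 0.584). The third gene of the group, Mgst3, differed by 0.06 (SE 0.19), and its groups overlapped. Among the alpha, theta and omega classes, differences were small. Gsta4, which conjugates the lipid peroxidation product hydroxynonenal, read 12.23 and 12.24 against 12.07 and 12.25. Gsta3 differed by 0.20 (SE 0.25). The 4 theta genes lay between -0.17 and -0.01, and Gsto1 and Gsto2, of the class that also reduces dehydroascorbate, at 0.05 and 0.10.

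**Figure D2:**
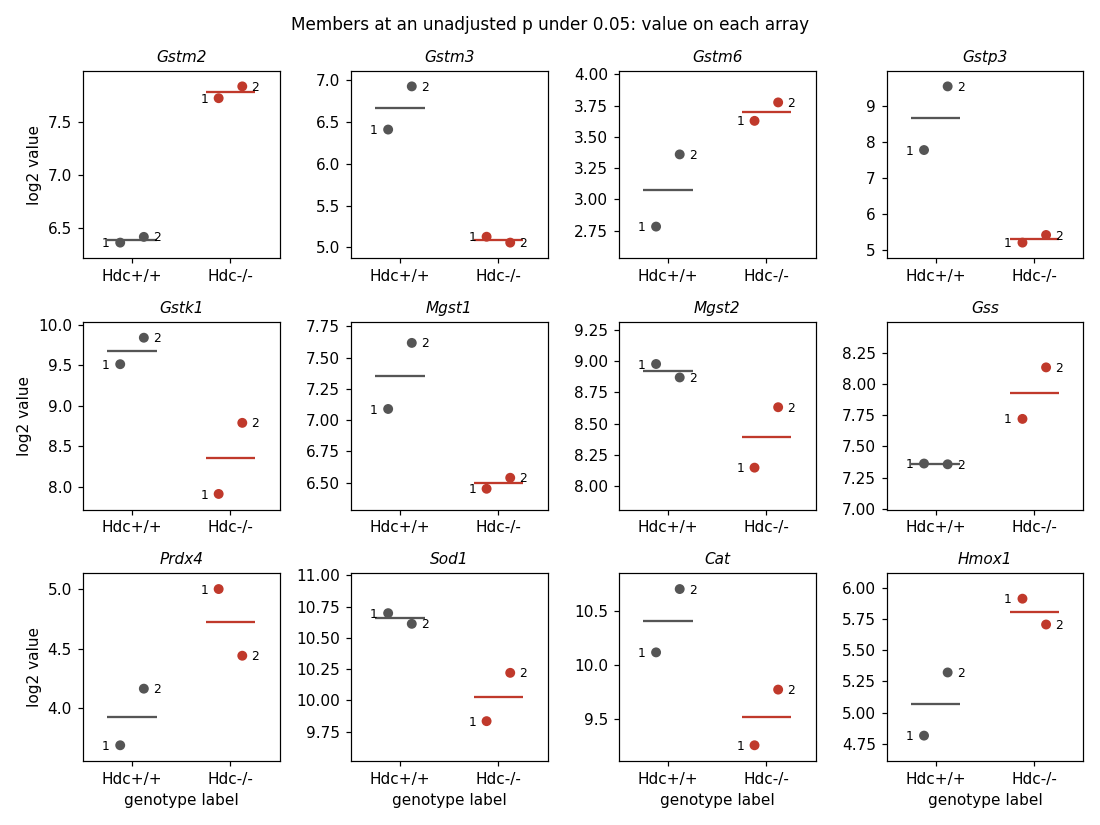
Log2 value of each of the 12 genes at an unadjusted p under 0.05 on each array, by genotype label, with the replicate number beside each point and a bar at the group mean. Each panel has its own axis. The groups do not overlap in any panel. The widest gaps between arrays of 1 genotype are those of Gstp3 (1.76) and Gstk1 (0.88), followed by Cat (0.59), Gstm6 (0.58), Prdx4 (0.56), Mgst1 (0.53), Gstm3 (0.52) and Hmox1 (0.51).

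Of the 4 genes that make and recycle glutathione, Gss and Gsr read higher on the Hdc-/- arrays. Gss, the synthetase that completes the peptide, read 7.36 on both Hdc+/+ arrays and 7.72 and 8.13 on the Hdc-/- arrays. The Hdc-/- arrays were both above a tight Hdc+/+ pair, by 0.57 on the log2 scale or 1.48-fold (SE 0.20; limma adjusted p = 0.534). Gsr, the reductase that regenerates glutathione, read 9.43 and 9.52 against 10.17 and 9.73, again with no overlap, and differed by 0.47 (SE 0.20, adjusted p = 0.601). Both sizes rested in part on 1 array: Gss differed by 0.36 without Hdc-/- array 2, and Gsr by 0.255 without Hdc-/- array 1. For the 2 subunits of the rate-limiting ligase the difference was smaller than its standard error, and the groups overlapped. Gclc, the catalytic subunit, read 8.28 and 8.36 against 8.19 and 8.39 and differed by -0.03 (SE 0.17). Gclm, the modifier subunit, read 8.48 and 8.68 against 8.71 and 8.49 and differed by 0.02 (SE 0.18).

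Over the 8 glutathione peroxidases, differences ran from -0.25 to 0.19 on the log2 scale, and 0 had an unadjusted p under 0.05. Gpx1, the widespread cytosolic enzyme, read 9.59 and 9.57 on the Hdc+/+ arrays and 9.11 and 9.56 on the Hdc-/- arrays. Hdc-/- array 1 alone was low, and the difference of -0.25 (SE 0.21) was -0.02 without it. Gpx4, which reduces lipid hydroperoxides in membranes and guards against ferroptosis, read 6.72 and 6.56 against 6.70 and 6.73 (difference 0.07, SE 0.16). Gpx6 had the smallest p of the 8, with no overlap, at 3.50 and 3.45 against 3.61 and 3.72 (difference 0.19, SE 0.16, adjusted p = 0.791). It lay in the dimmer 50% of genes, and the groups did not overlap for Gpx1 either. Gpx2, the gastrointestinal form, read between 2.42 and 2.78 on all 4 arrays and was in the dimmest 25% of genes, where Gpx5, an epididymal form, also lay.

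Of the 3 peroxiredoxins measured, Prdx4, which works in the endoplasmic reticulum, had the largest difference, with higher values on the Hdc-/- arrays. Its values were 3.69 and 4.16 on the Hdc+/+ arrays and 5.0 and 4.44 on the Hdc-/- arrays, a log2 difference of 0.79 or 1.73-fold (SE 0.27; limma adjusted p = 0.522). The gene lay in the dimmer 50% of genes, and its difference was 1.07 without Hdc-/- array 2 and 0.51 without Hdc-/- array 1. Prdx2, a cytosolic form, differed by 0.23 (SE 0.16), with values of 6.33 and 6.20 against 6.54 and 6.46. Prdx3, the mitochondrial form, read 7.17 and 7.21 against 7.10 and 6.69, a difference of -0.29 (SE 0.20, adjusted p = 0.734) set largely by Hdc-/- array 2. Each thioredoxin reductase, a selenoenzyme that keeps thioredoxin reduced, differed by less than its standard error. The cytosolic Txnrd1 read 8.79 and 8.88 against 8.85 and 8.77 (difference -0.03, SE 0.16), and Txnrd2 and Txnrd3 differed by 0.03 and -0.12.

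Catalase and the cytosolic superoxide dismutase read lower on the Hdc-/- arrays, and the mitochondrial dismutase did not separate the groups. Cat, whose enzyme breaks down hydrogen peroxide in peroxisomes, read 10.12 and 10.70 on the Hdc+/+ arrays and 9.25 and 9.77 on the Hdc-/- arrays. Each Hdc-/- value was below both Hdc+/+ values, though neither genotype's pair was tight. The log2 difference was -0.90, or 1.86-fold lower (SE 0.28; limma adjusted p = 0.489). Sod1, the copper-zinc enzyme of the cytosol, read 10.70 and 10.61 against 9.83 and 10.22, a log2 difference of -0.63 or 1.55-fold lower (SE 0.20, adjusted p = 0.487). Sod2, the manganese enzyme of mitochondria, read 9.12 and 9.09 against 9.30 and 8.74. The Hdc+/+ values lay between the Hdc-/- ones, and the difference of -0.08 (SE 0.23) was 0.20 without Hdc-/- array 2.

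The quinone and heme enzymes differed in sign. Hmox1, the inducible heme oxygenase that macrophages also express strongly, read 4.82 and 5.32 on the Hdc+/+ arrays and 5.91 and 5.70 on the Hdc-/- arrays. The groups did not overlap, and the log2 difference was 0.74 or 1.67-fold (SE 0.23; limma adjusted p = 0.482). It was 0.49 without Hdc+/+ array 1. On the same arrays 6 of 7 macrophage markers read higher (median 0.41; summed linear signal 501 and 709 on the Hdc+/+ arrays and 811 and 892 on the Hdc-/- arrays), and their part in the Hmox1 difference was not tested. The macrophage median was 0.16 without Hdc+/+ array 1 and 0.64 without Hdc+/+ array 2. Nqo1, a 2-electron quinone reductase and a classic NRF2 target, read 11.17 and 11.01 against 10.07 and 11.05. Only Hdc-/- array 1 was low, and the difference of -0.53 (SE 0.34, adjusted p = 0.714) was -0.04 without it.

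**Figure D3:**
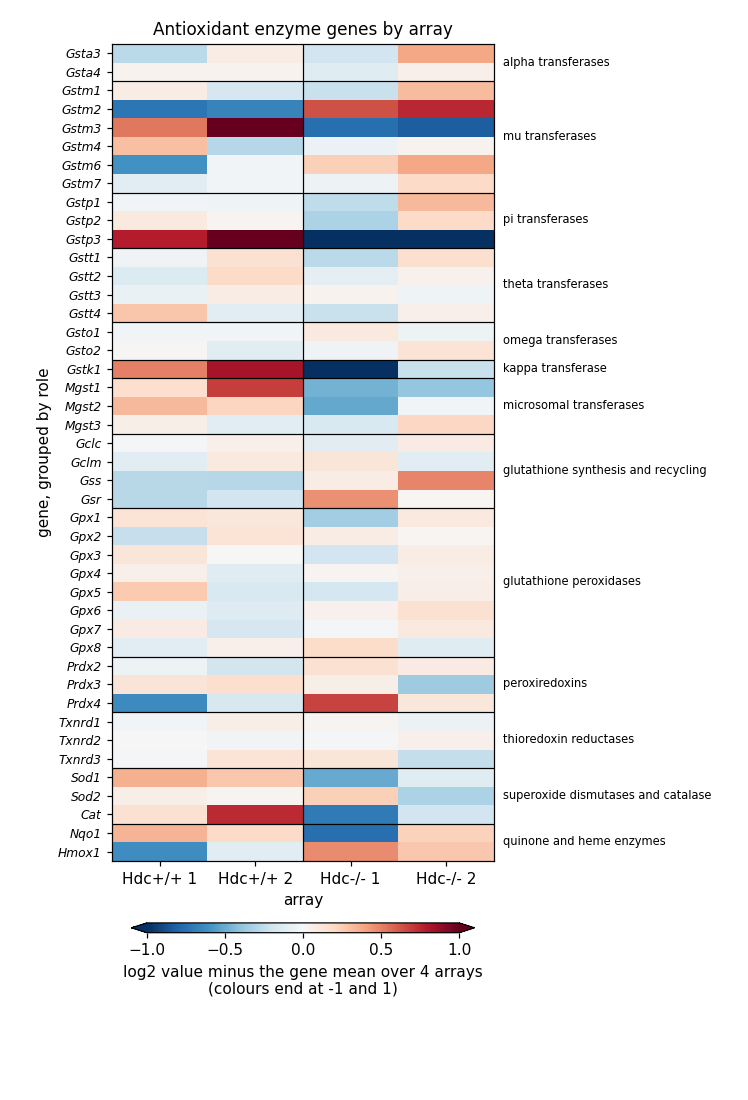
Log2 value of the 44 genes on each array, minus the gene's mean over the 4 arrays, grouped by role, with red for higher and blue for lower and colours ending at -1 and 1. Gstm2, Gstm3 and Gstp3 divide the arrays by genotype label, whereas Nqo1, Gpx1 and Gstk1 are lowest on Hdc-/- array 1.

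The 2 Hdc-/- arrays differed on many of these genes. The members' values were lower on Hdc-/- array 1 than on Hdc-/- array 2 in 30 of 44 cases (68.2%), against 52.7% of all genes. Hdc-/- array 1 gave the lowest of the 4 values for 18 members (40.9%, against 25.2% of all genes). The median gap between the Hdc-/- arrays was 0.24 on the log2 scale over the members, close to 0.23 over all genes, and that between the Hdc+/+ arrays was 0.16, beside 0.18. The widest gap between the Hdc-/- arrays was that of Nqo1 (0.98), and the widest between the Hdc+/+ arrays that of Gstp3 (1.76). Members share their arrays, so these shares describe 1 pair of arrays and not independent events.

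For all 12 genes at an unadjusted p under 0.05 the groups did not overlap, so leaving out any 1 array could not change their direction. The smallest differences that remained were 0.34 (Gstm6, without Hdc+/+ array 1) and -0.29 (Mgst2, without Hdc-/- array 1). Gstm2 varied least, from 1.34 to 1.45. Of the same 12 genes, 6 were still at an unadjusted p under 0.05 without Hdc+/+ array 1, 7 without Hdc+/+ array 2, 5 without Hdc-/- array 1 and 10 without Hdc-/- array 2. Over all 44 members the share at that level was 27.3% with all arrays (8.55% of all genes). It was 13.6% without Hdc+/+ array 1 (6.74% of all genes) and 15.9% without Hdc+/+ array 2 (4.75%). It was 13.6% without Hdc-/- array 1 (8.9%) and 27.3% without Hdc-/- array 2 (8.73%).

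**Figure D4:**
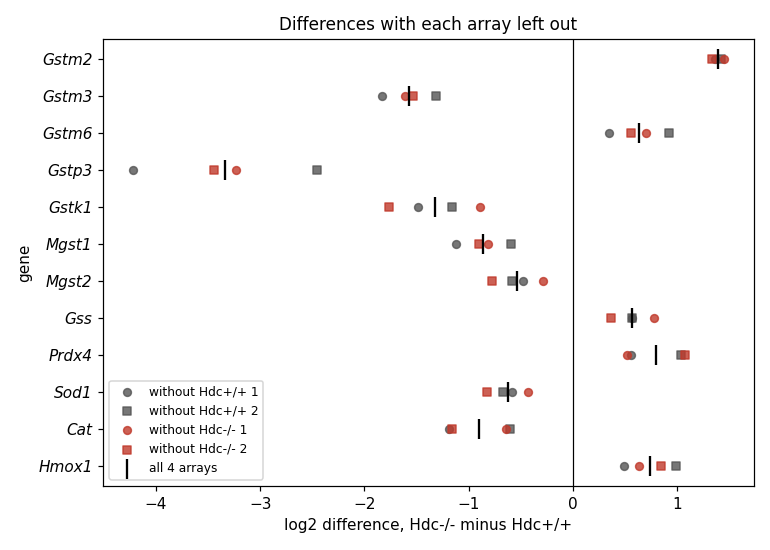
Log2 differences, Hdc-/- minus Hdc+/+, of the 12 genes at an unadjusted p under 0.05 with all 4 arrays (black bar) and with each array left out (points). No point can cross 0, since the groups do not overlap for these genes. Gstp3 has the widest range, from -4.22 without Hdc+/+ array 1 to -2.46 without Hdc+/+ array 2.

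The medians of the hepatocyte, enterocyte, pancreatic, adipocyte and squamous lists were each highest on Hdc+/+ array 2. Of the 7 lower members, 5 were highest on Hdc+/+ array 2 (Gstp3, Gstm3, Gstk1, Mgst1 and Cat). Sod1 and Mgst2 instead read slightly higher on Hdc+/+ array 1. The groups did not overlap for the 7 members, so the highest value had to fall on an Hdc+/+ array. A share of all genes is thus no fair comparison. The share among other lower genes whose groups did not overlap was not counted. The hepatocyte list stood 3.21 above its gene means on Hdc+/+ array 2, against 0.74 on Hdc+/+ array 1, -1.97 on Hdc-/- array 1 and -1.82 on Hdc-/- array 2. Lower values on Hdc-/- array 1 than on Hdc-/- array 2 were seen in 6 of the 7 members, against 52.7% of all genes. The hepatocyte medians differed little, and its genes were mixed: Alb read 4.90 and 4.71 on Hdc-/- arrays 1 and 2, and Ttr 7.24 and 8.31. By its median, the adipocyte list was lower on Hdc-/- array 1 (-0.84 and -0.28). The enterocyte (-0.63 and -1.24) and pancreatic (-0.90 and -1.07) lists went the other way, and the squamous list was nearly level (-0.39 and -0.37). Gstm2 and the chief cell list were both higher on the Hdc-/- arrays, the 5 chief cell genes by a median of 1.07 (0.71 without Hdc-/- array 1). The 7 parietal genes all read higher, with a median of 0.32, where 12006 of all 22180 genes read higher. Among these 7, the proton pump genes Atp4a (0.01, SE 0.26) and Atp4b (0.10, SE 0.22) were nearly level, and their groups overlapped. The 5 pit cell genes and the 6 smooth muscle genes all read lower, by medians of -0.11 and -0.26, where 45.87% of all genes read lower. Whether other tissue was present in the Hdc+/+ samples, and how far it entered the members' differences, was not tested.

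**Figure D5:**
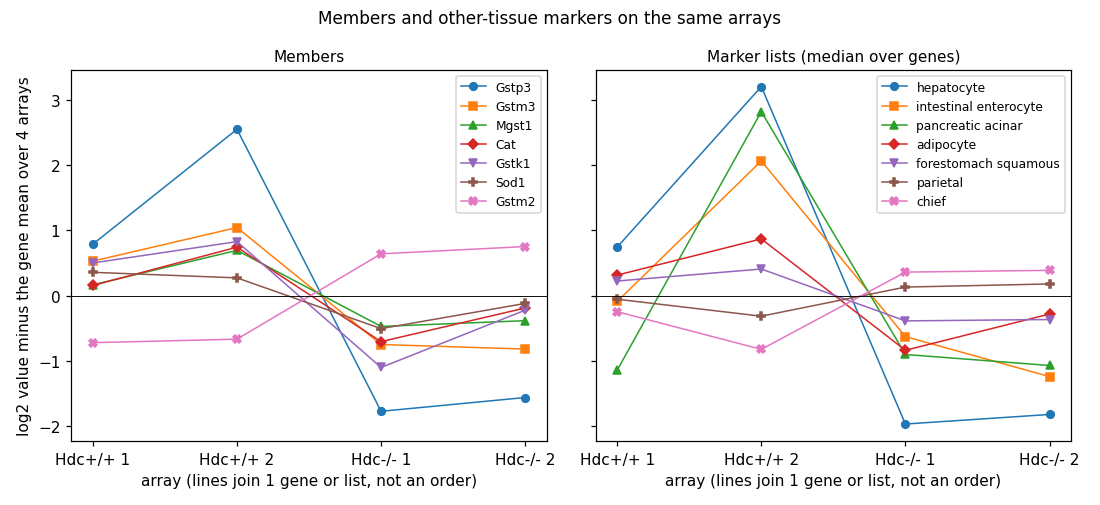
Left, log2 values of 7 members on each array minus the gene's mean over the 4 arrays. Right, the median of the same quantity over 7 marker lists. Lines join the values of 1 gene or list. Gstp3 and the hepatocyte list are both highest on Hdc+/+ array 2 and lowest on the Hdc-/- arrays, and Gstm2 is higher on both Hdc-/- arrays.

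Other genes of the pathway were taken as 4 lists, none of whose members passed limma's test over all genes. Their counts at an unadjusted p under 0.05 stand beside 8.55% of all genes. Among 18 partners of thioredoxin and glutaredoxin, 1 had an unadjusted p under 0.05, and the median difference was -0.07. The lower gene was Glrx, glutaredoxin, which read 9.82 and 9.96 on the Hdc+/+ arrays and 9.22 and 9.17 on the Hdc-/- arrays (difference -0.69, SE 0.16, adjusted p = 0.385). Cystine uptake and glutathione turnover were covered by 17 measured genes (median 0.08), of which 1 was higher and 1 lower at that level. Glo1, the glyoxalase that uses glutathione to clear methylglyoxal, read 7.32 and 7.71 against 8.38 and 8.44 (difference 0.89, SE 0.19, adjusted p = 0.359). Dpep1, a dipeptidase that takes part in glutathione breakdown, read 5.28 and 6.19 against 4.71 and 4.54 (difference -1.11, SE 0.32). Slc7a11, the cystine transporter, differed by 0.22 (SE 0.18).

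NRF2 regulators and further NRF2 targets split evenly in direction. The 22 measured genes held 11 with higher and 11 with lower values (median 0.04), and 3 had an unadjusted p under 0.05, 1 of them higher. The higher gene was Pgd, an NADPH-producing enzyme of the pentose phosphate pathway, at 8.66 and 8.77 on the Hdc+/+ arrays and 9.57 and 9.67 on the Hdc-/- arrays (difference 0.91, SE 0.16, adjusted p = 0.285). The lower ones were Abcc2, an export pump for glutathione conjugates (-2.12, SE 0.66), and the autophagy receptor gene Sqstm1 (-0.42, SE 0.16). Abcc2 is strongly expressed in liver and intestine, and it read 6.21 on Hdc+/+ array 2 against 4.08 on Hdc+/+ array 1 and 3.17 and 2.87 on the Hdc-/- arrays. Of the regulators, Nfe2l2, the NRF2 gene, read 9.92 on both Hdc+/+ arrays and 10.14 and 10.07 on the Hdc-/- arrays (difference 0.18, SE 0.16), and Keap1, its repressor, differed by -0.04 (SE 0.20). Among 14 other superoxide, heme and quinone genes (median -0.18), those at an unadjusted p under 0.05 were 2, both lower, the liver-made Pon1, paraoxonase (-3.73, SE 0.76), and Cp, ceruloplasmin (-2.11, SE 0.56). The extracellular dismutase gene Sod3 differed by -0.63 (SE 0.26, adjusted p = 0.591).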

How the data were processed

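The deposited values are log2 probe set values made by the authors. RMA, oligo and Affymetrix Power Tools appear in a list of tools, with no version or role, per the submitters' processing notes. Tissue was minced and RNA extracted with Trizol, per the labels' protocols. Not given in the sources used here are the level of summarization, any filter and the annotation build. Depth has no meaning for arrays, and their number limits the precision.

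Of 41345 probe sets, 23521 had 1 symbol, 1814 several and 16010 none. The probe set with the highest mean stood for a gene, which left 22180 genes. All 44 members matched the gene table of GRCm38.p6 by Entrez identifier. Genotypes were compared with limma 3.58.1 in R 4.3.3 (lmFit and eBayes, no covariate, 2 residual and 3.62 prior degrees of freedom, Benjamini-Hochberg over all genes, threshold 0.05). The script was tested on simulated data. With 2 arrays per group, a two-sided exact permutation p cannot go below 0.333.

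The members, lists and naming rule (every member at an unadjusted p under 0.05, the 2 smallest p per role, and a fixed list of core enzymes) were chosen with earlier results of these data known. Lists are described by counts and medians and were not tested. The alternatives were filters on dim genes, averaging or testing all probe sets, other normalizations, another variance prior, a replicate block, and leaving out each array. Deviations of same-numbered arrays correlated at -0.119, so the numbers were not taken to pair the samples.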

Additional observations from a re-analysis of the deposited data

How the results depend on the processing

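With the call rule of an unadjusted p the number of members called was 12 in place of 0. Under the other alternatives that kept all 4 arrays it was 0, and with each array left out it ranged from 0 to 1, the 1 being Gstp3 without Hdc+/+ array 1. Members at an unadjusted p under 0.05 ranged from 6 to 12 with an array left out and from 9 to 12 under the other alternatives. The members' median difference ranged from -0.079 to 0.021 with an array left out and was 0.018 after quantile normalization. With the replicate block limma called 0 members, and 11 had an unadjusted p under 0.05. The crossed replicate block, added after seeing the data, called 0 and gave 12. Over all genes the replicate block called 1 gene higher and 6 lower, the trended and robust prior 3 and 2, quantile normalization 2 and 3, and the crossed block 0 and 0. Of the 30 named members, 12 changed sign under at least 1 alternative, and 0 of these were among the 12 with the smallest p. The groups did not overlap for those 12 with the smallest p, so leaving out an array could not change their sign. After quantile normalization Gsto1 was -0.035, Gclc 0.025, Txnrd1 0.014 and Sod2 0.0090, and after cyclic loess Gsta4 was 0.0071. With an array left out, Gsta3 ranged from -0.090 to 0.48, Gsta4 from -0.16 to 0.012, Gstp2 from -0.38 to 0.12, Gstt1 from -0.33 to 0.10, Gstt4 from -0.36 to 0.018, Gsto1 from -0.025 to 0.12, Gclc from -0.13 to 0.069, Gclm from -0.094 to 0.13, Gpx4 from -0.012 to 0.16, Txnrd1 from -0.077 to 0.014, Txnrd3 from -0.30 to 0.065 and Sod2 from -0.36 to 0.20. The cause was not tested. Leaving out an array left 1 in its group, which the fit assumes to vary as the other genotype's arrays do. Averaging probe sets left the members' values as they were, since each had 1. With the dimmest 25% of genes left out 41 members were tested, and with the dimmest 50% left out 35 were.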

Other observations

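A pair of members, Cat and Gss, lie on chromosome 2 in the gene table, the chromosome that also carries Hdc. Both had an unadjusted p under 0.05, Cat with lower and Gss with higher values on the Hdc-/- arrays, where 122 of the 1864 genes of that chromosome (6.55%) did in either direction, against 8.55% of all genes. Glo1, the glyoxalase gene with the smallest p of the turnover list, lies on chromosome 17, as does H2-Ea, the 1 gene that passed the comparison over all genes (log2 difference 4.37; SE 0.19; limma adjusted p = 0.0217). These positions were looked up after the values were seen.

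Pgd, Taldo1 and Me1, from the list of NRF2 targets, encode enzymes of the pentose phosphate pathway and of malate metabolism, and none passed the test. Pgd read higher on both Hdc-/- arrays by 0.91 on the log2 scale, and Taldo1, transaldolase of the same pathway, read 7.84 and 7.97 on the Hdc+/+ arrays and 8.22 and 8.20 on the Hdc-/- arrays (difference 0.30, SE 0.16, limma adjusted p = 0.655). Me1, the cytosolic malic enzyme, read 10.20 and 10.22 against 11.02 and 9.68, so that its groups overlapped and the 2 Hdc-/- arrays lay on either side of the Hdc+/+ pair.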
